A study of Mus musculus with 9 samples.

Results

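The 9 genes described here encode AP-1 transcription factors and their close relatives: *Fos*, *Fosb*, *Fosl1* and *Fosl2* of the Fos family, *Jun*, *Junb* and *Jund* of the Jun family, and the basic leucine zipper factors *Atf3* and *Batf3*. They were chosen by name from the 55450 genes of a count table, with earlier results of these data known. All 9 passed the filter on low counts and belonged to the 19357 genes tested. The table held RNA-sequencing counts of EYFP+ mammary cells sorted by FACS from adult nulliparous mice, with 3 libraries in each of 3 groups. All groups carried lsl-EYFP, a reporter that becomes active after Cre recombination, and K8CreERT2, a Cre recombinase under the promoter of the luminal keratin gene *Krt8* that acts after tamoxifen. The control group (lsl-EYFP;K8CreERT2) had no other floxed allele, the LATS1/2-KO group added LATS1/2f/f, and the LATS1/2-Sox9-KO group added LATS1/2f/f and Sox9f/f. Every mouse received 2 mg of tamoxifen on 5 days, and cells were sorted 7 days after the last dose. Total counts ran from 44167762 to 47003587 in the control libraries, from 50508666 to 61745346 in the LATS1/2-KO group and from 55503365 to 61967651 in the LATS1/2-Sox9-KO group.

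AP-1 is a dimer of basic leucine zipper proteins that binds short DNA elements and joins a Jun protein with a Fos protein, with another Jun protein or with a factor of the ATF and BATF kinds. *Fos*, *Fosb*, *Jun*, *Junb* and *Atf3* are immediate early genes, transcribed within minutes of a growth factor, a stress or the enzymatic digestion of a tissue, and their transcripts are short-lived. LATS1 and LATS2 are the kinases of the Hippo pathway that restrain the coactivators YAP and TAZ, and YAP and TAZ act through TEAD factors, which share many enhancers with AP-1.

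The targeted genes were examined first, since they bear on the labels. *Lats1*, normalized for library size, stood at 5672, 5929 and 5940 counts in the control libraries, at 2090, 1923 and 2336 in the LATS1/2-KO-labelled ones and at 2058, 1844 and 1709 in the LATS1/2-Sox9-KO-labelled ones. It was 2.76-fold lower in the LATS1/2-KO-labelled libraries (log2 fold change -1.47 ± 0.11, SE, adjusted p = 7.07e-06) and 3.13-fold lower in the LATS1/2-Sox9-KO-labelled ones. *Lats2* did not fall, with group means of 1041, 1471 and 1592 normalized counts in the same order, and its log2 difference between LATS1/2-KO and control was 0.50 (adjusted p = 0.0571), which passed without control replicate 3 (adjusted p = 0.0421) or without LATS1/2-KO replicate 1 (0.0361). Between LATS1/2-Sox9-KO and control the difference was 0.61 (adjusted p = 0.024), which did not pass without control replicate 1, control replicate 2 or LATS1/2-Sox9-KO replicate 1 (0.0599, 0.0929 and 0.0803). *Sox9* was already 2.22-fold lower in the LATS1/2-KO-labelled libraries than in controls, and its log2 difference between LATS1/2-Sox9-KO and LATS1/2-KO was -0.40 (adjusted p = 0.25). Counts summed over a whole gene do not show whether a floxed exon is missing, so the groups are named here by their labels.

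The members lie on 7 chromosomes (GRCm38, GENCODE M21). *Fos* is at chr12:85473890-85477273 on the plus strand and *Fosb* at chr7:19302696-19310051 on the minus strand. *Fosl1* is at chr19:5447547-5455946 and *Fosl2* at chr5:32135801-32157842, both on the plus strand. *Jun* (chr4:95049034-95052222, minus), *Junb* (chr8:84974484-84978718, minus) and *Jund* (chr8:70698949-70700616, plus) each have 1 exon in their longest transcript, whereas the other 6 members have 4. *Atf3* (chr1:191170296-191218039, minus) and *Batf3* (chr1:191097847-191108945, plus) are close to each other on chromosome 1.

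The 120 bases before the annotated starts of *Fos* and *Jun* are shown because both genes are known for the elements they carry there, and because their transcripts moved in the same direction. They are RefSeq sequences of GRCm38.p6, at chr12:85473770-85473889 on the plus strand and chr4:95052223-95052342 on the minus strand. Capitals in *Fos* mark TGACGT, the first 6 letters of the cyclic AMP response element TGACGTCA, and the TATA box letters TATAAA. Capitals in *Jun* mark TGACATCA, a variant of that element to which Jun and ATF proteins are known to bind.
Fos: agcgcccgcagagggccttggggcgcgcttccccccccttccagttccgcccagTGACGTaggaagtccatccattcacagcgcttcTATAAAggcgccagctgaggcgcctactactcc
Jun: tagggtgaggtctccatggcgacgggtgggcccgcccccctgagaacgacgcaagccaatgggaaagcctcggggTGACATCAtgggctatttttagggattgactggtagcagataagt
A promoter window, from 250 bases before to 50 bases after the start of the gene in RefSeq, was matched for 8 members, that is all but *Fosl1*. For *Fos*, *Fosb*, *Jun* and *Junb* that start was within 30 bases of the GENCODE start. It was 567 bases from it for *Batf3*, 671 for *Fosl2*, 1210 for *Jund* and 34706 for *Atf3*, so for these 4 the window shows another start. In these 8 windows, searched on both strands, there was no match to the AP-1 element TGACTCA or its reverse complement TGAGTCA, to TGACGTCA, to the CArG box of SRF, or to the TEAD element CATTCC or its reverse complement GGAATG. Those letters are in 5.20%, 1.79%, 1.63% and 14.7% of 32851 promoter windows, respectively. TGACATCA or its reverse complement TGATGTCA was in the *Jun* window alone of the 8, starting 45 bases before the gene, and is in 3.62% of all windows. TGACGT or its reverse complement ACGTCA, letters that every full TGACGTCA also holds, was in the *Fos* and *Atf3* windows and is in 7.51% of all. TATAAA or its reverse complement TTTATA was in the *Fos* and *Junb* windows and is in 13.6% of all. These last 3 sets of letters were chosen after the sequences were read. All windows end 250 bases before the start, so an element further upstream, a CArG box included, would not be seen in this search.

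In controls, *Fos*, *Fosb*, *Jun*, *Junb*, *Jund* and *Atf3* were among the most counted genes, whereas *Fosl2*, *Fosl1* and *Batf3* ranked further down. *Fosb* ranked 1, 2 and 3 among the 55450 genes by count in control replicates 1, 2 and 3, and *Fos* ranked 8, 10 and 4. *Jun*, *Junb*, *Jund* and *Atf3* all ranked at place 54 or higher, while *Fosl2* ranked 267, 280 and 530, *Fosl1* 2122, 1981 and 2548 and *Batf3* 14192, 15206 and 13896. In the LATS1/2-KO-labelled libraries, *Fosb* ranked 48, 115 and 91 and *Fos* ranked 30, 20 and 30. The 9 members together took 2.09%, 1.82% and 2.24% of the counts of the control libraries. They took 0.646%, 0.595% and 0.582% in the LATS1/2-KO-labelled ones, and 0.751%, 0.504% and 0.462% in the LATS1/2-Sox9-KO-labelled ones. The control libraries were thus all above the other 6. With 3 libraries against 3, the smallest p that an exact two-sided permutation test can give is 0.1, which both comparisons with control reached, and the 2 labelled knockout groups overlapped (p = 0.8). In sorted bulk cells, fewer cells with a transcript and less of it per cell cannot be told apart.

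**Figure D1:**
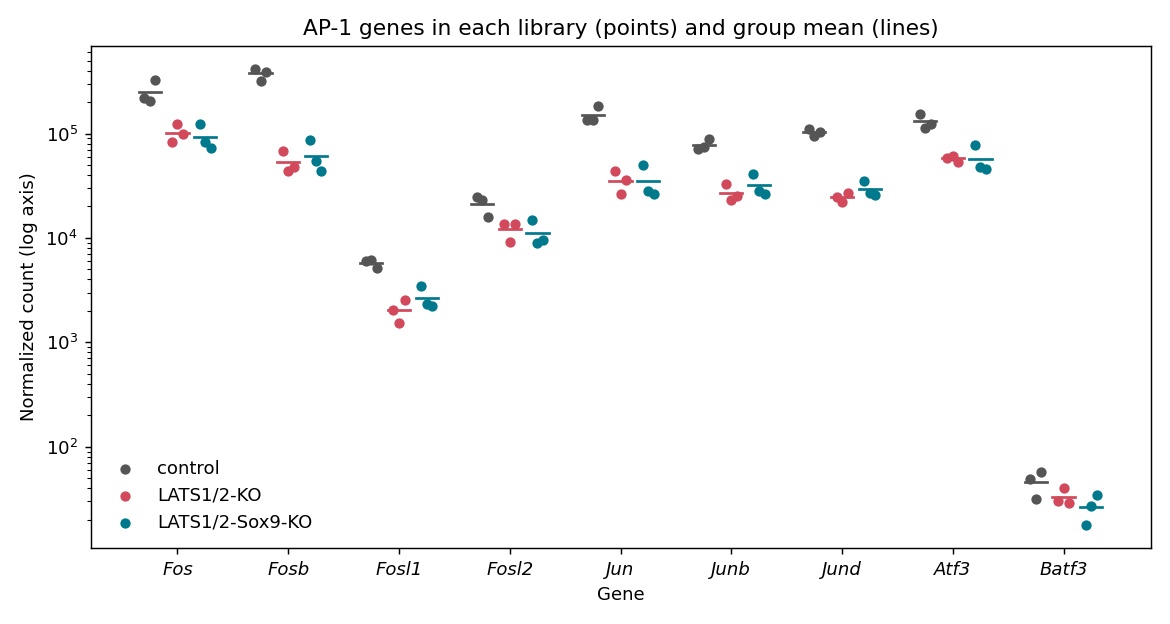
Normalized count (log axis) of each AP-1 gene (x axis) in every library (points, 3 per group) with the group mean (lines). For the 8 genes other than *Batf3*, every library of the labelled knockout groups lies below every control library, while both knockout groups overlap.

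Compared with controls, 8 of the 9 members were lower in the LATS1/2-KO-labelled libraries at an adjusted p of at most 0.05, and the same 8 were lower in the LATS1/2-Sox9-KO-labelled ones. For these 8, no library of either knockout group overlapped the controls, which held for 30.3% and 33.8% of all tested genes in that direction. Of all tested genes, 27.1% passed as lower in the first comparison and 28.7% in the second. At the stricter call, which also asks for a log2 fold change beyond 1, 7 members were lower in each, against 17.5% and 19.6% of all genes. That number was 5 in LATS1/2-KO and 4 in LATS1/2-Sox9-KO with an offset for GC content, and 5 and 3 in a test against a fold change of 2. The median log2 fold change of the members was -1.51 and -1.30, against 0.04 and 0.01 over all tested genes. The 2 comparisons share the control libraries and are therefore not independent. No member passed in the fit without offset between the LATS1/2-Sox9-KO-labelled and LATS1/2-KO-labelled libraries, where 3.33% of all genes were lower and 3.13% higher. In that comparison 0 members had an unadjusted p under 0.05 by edgeR, and 0 passed by DESeq2. With the offset for GC content *Jund* passed there (log2 difference 0.46, adjusted p = 0.0381), the 1 of 17 alternatives in which it did.

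*Fosb*, whose protein is an activating partner of Jun proteins, fell the furthest. Its normalized counts were 416923, 318970 and 391177 in controls, 68703, 43881 and 47852 in the LATS1/2-KO-labelled libraries and 85973, 54631 and 43396 in the LATS1/2-Sox9-KO-labelled ones. All 6 libraries of the labelled knockout groups were far below the lowest control library. *Fosb* was 7.03-fold lower in LATS1/2-KO (log2 fold change -2.81 ± 0.27, SE, adjusted p = 2.15e-05) and 6.13-fold lower in LATS1/2-Sox9-KO (-2.61 ± 0.27, adjusted p = 2.43e-05). Between both knockout groups its log2 difference was 0.20 ± 0.25 (adjusted p = 0.705).

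*Fos*, the founding member of the family, fell less than *Fosb*. It was counted at 220029, 204123 and 322440 in controls, at 83247, 123362 and 98422 in the LATS1/2-KO-labelled libraries and at 124609, 82022 and 72006 in the LATS1/2-Sox9-KO-labelled ones. The groups did not overlap with controls, and control replicate 3 was the highest. The fall was 2.45-fold in LATS1/2-KO (log2 fold change -1.29 ± 0.25, adjusted p = 0.00148) and 2.68-fold in LATS1/2-Sox9-KO (-1.42 ± 0.25, adjusted p = 0.000751).

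*Fosl1* encodes Fra-1, which lacks the strong activation domain of Fos, and it was counted far less. Its values were 6065, 6185 and 5170 in controls, 2055, 1543 and 2524 in the LATS1/2-KO-labelled libraries and 3465, 2319 and 2235 in the LATS1/2-Sox9-KO-labelled ones. It fell 2.85-fold in the former (log2 fold change -1.51 ± 0.21, adjusted p = 0.000229) and 2.17-fold in the latter (-1.12 ± 0.21, adjusted p = 0.00123). *Fosl2*, which encodes Fra-2, changed the least of the 8. It stood at 24551, 22949 and 15982 in controls, at 13471, 9075 and 13572 in the LATS1/2-KO-labelled libraries and at 14838, 8981 and 9451 in the LATS1/2-Sox9-KO-labelled ones. Control replicate 3 was close to the knockout libraries without overlapping them. The log2 fold change of *Fosl2* was -0.81 ± 0.24 (adjusted p = 0.0157) in LATS1/2-KO and -0.93 ± 0.24 (adjusted p = 0.00754) in LATS1/2-Sox9-KO, both short of the stricter call. The first did not pass without control replicate 1 (adjusted p = 0.0578) or without LATS1/2-KO replicate 2 (adjusted p = 0.0529). Nor did it pass with the offset for GC content (-0.55, adjusted p = 0.0623).

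All 3 Jun family genes fell. *Jun*, which can activate as a dimer with itself, was counted at 134995, 134001 and 182280 in controls, at 43530, 26252 and 35532 in the LATS1/2-KO-labelled libraries and at 49745, 28311 and 26081 in the LATS1/2-Sox9-KO-labelled ones. It was 4.29-fold lower in LATS1/2-KO (log2 fold change -2.10 ± 0.28, adjusted p = 0.000142) and 4.33-fold lower in LATS1/2-Sox9-KO (-2.12 ± 0.28, adjusted p = 0.000115). No knockout library reached the controls, and both knockout groups spanned nearly the same range.

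*Jund*, usually the most constant of the 3 between resting and stimulated cells, fell with the smallest standard error of the members. Its values were 111254, 93953 and 102859 in controls, 24636, 22230 and 27022 in the LATS1/2-KO-labelled libraries and 34773, 26727 and 25860 in the LATS1/2-Sox9-KO-labelled ones. It was 4.17-fold lower in LATS1/2-KO (log2 fold change -2.06 ± 0.14, adjusted p = 4.13e-06) and 3.53-fold lower in LATS1/2-Sox9-KO (-1.82 ± 0.14, adjusted p = 4.97e-06). *Junb*, a weaker activator that can oppose Jun, stood at 71827, 74142 and 89256 in controls, at 32905, 23169 and 25440 in the LATS1/2-KO-labelled libraries and at 41147, 28070 and 26114 in the LATS1/2-Sox9-KO-labelled ones. It fell 2.89-fold in LATS1/2-KO (log2 fold change -1.53 ± 0.20, adjusted p = 0.000131) and 2.47-fold in LATS1/2-Sox9-KO (-1.30 ± 0.20, adjusted p = 0.000298).

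*Atf3*, a stress-induced repressor that pairs with Jun proteins, was counted at 155435, 112301 and 124641 in controls, at 58556, 61549 and 53837 in the LATS1/2-KO-labelled libraries and at 77222, 47789 and 45791 in the LATS1/2-Sox9-KO-labelled ones. It fell 2.26-fold in LATS1/2-KO (log2 fold change -1.17 ± 0.20, adjusted p = 0.000827) and 2.30-fold in LATS1/2-Sox9-KO (-1.20 ± 0.20, adjusted p = 0.000644). *Batf3*, best known for its role in dendritic cells, was barely counted. It had 48.7, 31.8 and 57.3 normalized counts in controls, 30.1, 40.7 and 29.2 in the LATS1/2-KO-labelled libraries and 17.6, 26.9 and 34.6 in the LATS1/2-Sox9-KO-labelled ones, and the groups overlapped. Its log2 fold changes of -0.46 ± 0.41 (adjusted p = 0.373) and -0.79 ± 0.42 (adjusted p = 0.129) did not pass.

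**Figure D2:**
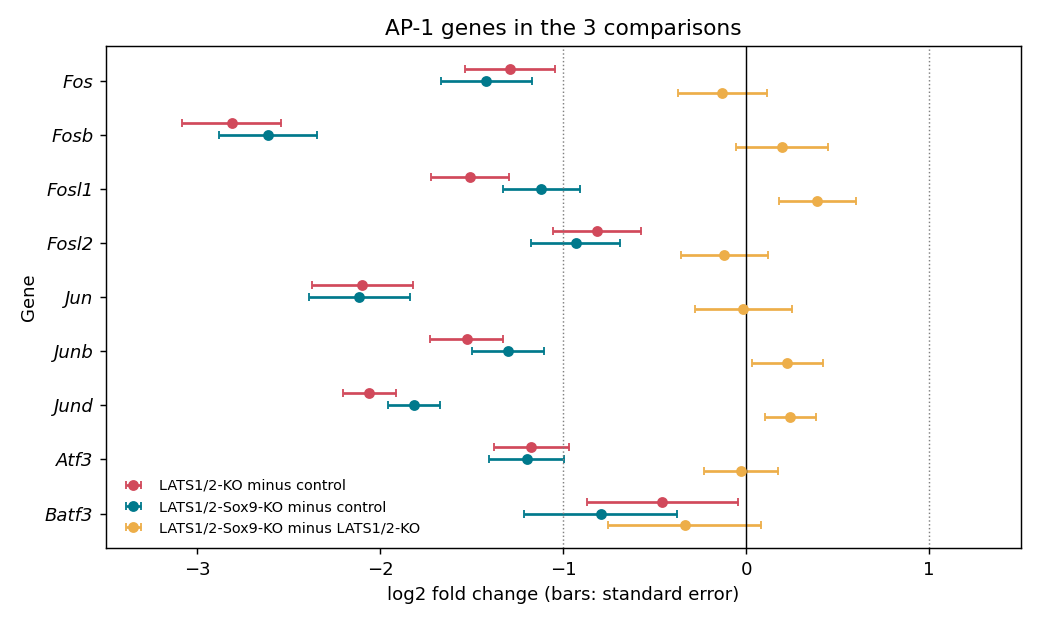
log2 fold change (x axis, points) with its standard error (bars) of each AP-1 gene in the 3 comparisons, with dotted lines at the threshold of the stricter call. The points of both comparisons with control lie left of 0 for all 9 genes, from -2.81 for *Fosb* to -0.46 for *Batf3*, and those between the knockout groups lie between -0.34 and 0.39.

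In the LATS1/2-Sox9-KO-labelled libraries against the LATS1/2-KO-labelled ones, 4 members had a positive log2 difference and 5 a negative one. The largest difference was that of *Fosl1*, 0.39 ± 0.21 (adjusted p = 0.311), followed by *Batf3* at -0.34 ± 0.42 (adjusted p = 0.694). LATS1/2-Sox9-KO replicate 1 held the highest value of its group for 8 members, the exception being *Batf3*. The median coefficient of variation of the members was 30.1% in that group, 19.9% in LATS1/2-KO and 17.0% in controls.

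Levels of different genes were compared per kilobase of exon, over all annotated exons of a gene (2352 bases for *Fos* and 6243 for *Fosb*). Their longest transcripts have 2108 and 3782 bases, so the gap between both genes depends on the length chosen. The same holds for their overlap and for the order of the members, which are given here by all annotated exons alone. In controls, *Fos* was the highest at 105810 ± 27302 normalized counts per kilobase (SD, n = 3), and its lowest library was above the highest of any other member. *Jund* (61564 ± 5187), *Atf3* (60721 ± 10313), *Fosb* (60178 ± 8134) and *Jun* (47170 ± 8652) followed, and each overlapped the next. *Junb* came next at 34076 ± 4114, apart from *Jun* above it. *Fosl1* (2856 ± 273), *Fosl2* (2186 ± 471) and *Batf3* (28.7 ± 8.13) were lower and did not overlap one another. In the LATS1/2-KO-labelled libraries the order was *Fos* (43230 ± 8612), *Atf3* (26918 ± 1805), *Jund* (14766 ± 1436), *Junb* (11809 ± 2214), *Jun* (11008 ± 2712) and *Fosb* (8566 ± 2136). There *Fos* and *Atf3* each stood apart from the next gene, while *Jund*, *Junb*, *Jun* and *Fosb* overlapped their neighbours. By this length, *Fosb* had thus moved from place 4 to place 6. *Fosl2* (1244 ± 265) and *Fosl1* (1004 ± 241) overlapped, with their means in the reverse of the order in controls. In the LATS1/2-Sox9-KO-labelled libraries the first 6 genes had the same order, from *Fos* at 39490 ± 11876 to *Fosb* at 9824 ± 3534, and *Fos* overlapped *Atf3*. *Fosl1* (1315 ± 338) was again above *Fosl2* (1146 ± 336), and both overlapped.

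In the Fos family, the share of *Fosb* was lower and that of *Fos* higher in both knockout groups than in controls. With 3 libraries a group, no test of a share could pass. Per kilobase, *Fosb* made up 40.3%, 35.7% and 30.7% of the family in controls, 22.6%, 11.5% and 14.7% in the LATS1/2-KO-labelled libraries and 19.7%, 19.2% and 17.5% in the LATS1/2-Sox9-KO-labelled ones. *Fos* made up 56.4%, 60.6% and 67.2% in controls, 72.5%, 85.7% and 80.2% in LATS1/2-KO and 75.7%, 76.3% and 77.2% in LATS1/2-Sox9-KO. Neither gene's share overlapped between controls and a knockout group. In LATS1/2-KO the mean share of *Fosb* was 19.3 percentage points lower and that of *Fos* 18.1 points higher. Each had an exact two-sided permutation p of 0.1, the smallest that 3 against 3 allows. After adjustment over 21 such tests it was 0.21, so neither passed. *Fosl1* and *Fosl2* together stayed a small fraction, with *Fosl2* at 1.33% ± 0.456 in controls and 2.36% ± 0.719 in LATS1/2-KO (SD, n = 3 each).

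In the Jun family the shares differed less between groups. *Junb* made up 23.8% ± 1.38 of the family in controls, 31.4% ± 2.38 in LATS1/2-KO and 32.7% ± 0.290 in LATS1/2-Sox9-KO (SD, n = 3 each). Neither knockout group overlapped with controls. Both differences had an exact permutation p of 0.1 (adjusted p = 0.21), the smallest that 3 against 3 allows, so this test could not pass. *Jun* made up 32.9% ± 3.10, 29.0% ± 2.96 and 25.3% ± 2.94 in that order of groups, and *Jund* 43.3% ± 4.22, 39.6% ± 4.38 and 41.9% ± 3.14. The share of *Jund* overlapped between all groups.

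**Figure D3:**
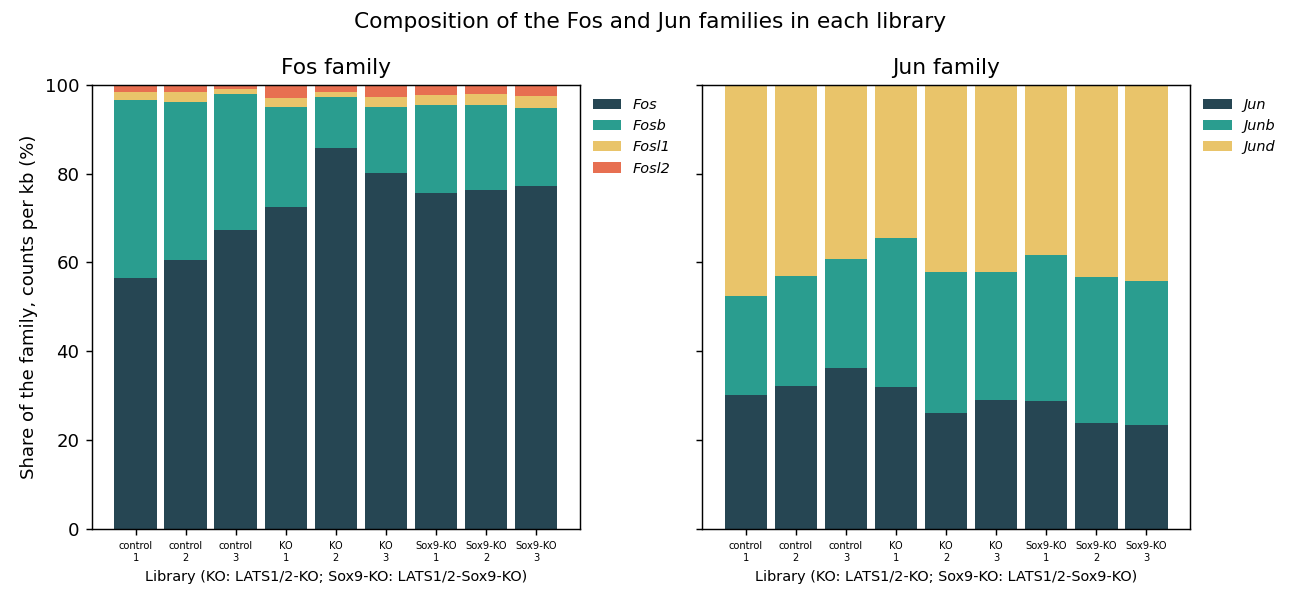
Share of each gene (colours, y axis in percent of the summed counts per kilobase) in the Fos family (left) and the Jun family (right) in each of the 9 libraries. *Fosb* occupies 30.7% to 40.3% of the Fos family bars in controls and 11.5% to 22.6% in the other 6 libraries.

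Other dimer partners and relatives of AP-1 (27 basic leucine zipper genes, of which 25 were tested) also tended to be lower. In LATS1/2-KO, 14 were lower and 4 higher than in controls, and the median log2 fold change was -0.67, where 27.1% of all genes were lower and 28.7% higher. *Batf*, a partner of Jun proteins, had 881, 818 and 662 normalized counts in controls and 153, 63.5 and 83.0 in the LATS1/2-KO-labelled libraries, a log2 fold change of -2.98 (adjusted p = 4.49e-05). *Crem*, which encodes cyclic AMP-responsive activators and repressors, fell by 2.62 on the log2 scale (adjusted p = 9.51e-06). *Nfe2l3*, of the CNC factors that pair with small Maf proteins, rose by 2.25 (adjusted p = 9.1e-07). Between LATS1/2-Sox9-KO and LATS1/2-KO, where 3.13% of all genes were higher and 3.33% lower, 1 of the 25 genes was higher and 2 were lower. These were *Atf5*, higher by 1.34 (adjusted p = 0.019), and *Cebpd* and *Nfe2l3*, at log2 differences of -1.12 (adjusted p = 0.0295) and -0.76 (adjusted p = 0.00607).

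Most other immediate early genes fell with the members. Of 33 listed genes, 22 were lower and 5 higher in LATS1/2-KO, where 27.1% of all genes were lower and 28.7% higher. The median log2 fold change of the 33 was -1.01. In LATS1/2-Sox9-KO, 23 were lower and 6 higher, where 28.7% of all genes were lower and 29.3% higher. The largest changes were those of the nuclear receptor genes *Nr4a3* (log2 fold change -4.92, adjusted p = 7.06e-05) and *Nr4a1* (-3.02, adjusted p = 4.69e-05) and of *Socs3*, an inhibitor of cytokine signaling (-3.59, adjusted p = 2.46e-05). *Nr4a1* was counted at 36041, 31348 and 26379 in controls and at 4848, 2940 and 3754 in the LATS1/2-KO-labelled libraries. The 5 genes that rose, named after their values were seen, were *Sgk1* (1.73), *Ccn1* (1.45), *Gadd45b* (1.03), *Dusp1* (0.98) and *Ier3* (0.83). *Ccn1* is a textbook target of YAP and TAZ. Between LATS1/2-Sox9-KO and LATS1/2-KO, 3 of the 33 genes were higher and 3 lower, where 3.13% of all genes were higher and 3.33% lower. *Egr2*, *Egr3* and *Arc*, all induced by growth factors or neuronal activity, were the 3 lower ones, with log2 differences of -1.65 (adjusted p = 0.00323), -1.61 (adjusted p = 0.0472) and -1.24 (adjusted p = 0.026). The 3 higher ones, named after their values were seen, were *Sik1* (0.94, adjusted p = 0.027), *Ier3* (0.71, adjusted p = 0.0384) and *Gadd45g* (0.69, adjusted p = 0.0481). Immediate early genes are known to respond to the digestion of tissue, a step that all libraries share, and its part in these differences was not tested.

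Heat shock genes, which answer protein damage, moved the other way. Of 10 listed genes, 7 were higher and 0 lower in LATS1/2-KO by edgeR (7 and 0 by unadjusted p under 0.05, and by DESeq2), where 28.7% of all genes were higher and 27.1% lower, and the median log2 fold change was 0.91. *Hspb1* rose by 2.07 (adjusted p = 3.11e-06), *Hsph1* by 1.45 (adjusted p = 0.000341) and *Hspa8* by 1.15 (adjusted p = 2.25e-05). *Hspb1* was also higher in LATS1/2-Sox9-KO than in LATS1/2-KO, by 0.65 (adjusted p = 0.0206). The 3 that did not pass were the strongly stress-induced *Hspa1a* (0.22, adjusted p = 0.51), *Hspa1b* (-0.30, adjusted p = 0.268) and *Dnajb1* (-0.27, adjusted p = 0.152).

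Genes upstream of AP-1 were examined next. Of 22 tested genes of the MAP kinase cascades, which phosphorylate Jun and the factors that induce *Fos*, 13 were lower and 6 higher in LATS1/2-KO, where 27.1% of all genes were lower and 28.7% higher. *Mapk8*, which encodes the Jun kinase JNK1, rose by 1.16 on the log2 scale (adjusted p = 0.000236), while *Araf*, a kinase below Ras, fell 3.04-fold (adjusted p = 2.95e-06). Between LATS1/2-Sox9-KO and LATS1/2-KO, 1 of the 22 was higher and 1 lower, where 3.13% of all genes were higher and 3.33% lower. Of 17 inhibitors of these cascades, 10 were lower and 2 higher in LATS1/2-KO than in controls, where 27.1% of all genes were lower and 28.7% higher. *Spred2* and *Spred3*, which hold back Ras signaling, had log2 fold changes of -2.22 (adjusted p = 3.32e-05) and -1.34 (adjusted p = 0.000153), and the phosphatase gene *Dusp9* rose by 3.09 (adjusted p = 1.21e-05). Between LATS1/2-Sox9-KO and LATS1/2-KO, *Dusp7* was higher by 1.25 (adjusted p = 0.0262) and *Spred1* had a log2 difference of -0.54 (adjusted p = 0.0393). SRF and its cofactors bind the *Fos* promoter at the serum response element. Of these 6 genes, 4 were lower and 1 higher in LATS1/2-KO than in controls, where 27.1% of all genes were lower and 28.7% higher. *Srf* itself had a log2 fold change of -0.79 (adjusted p = 0.00574), *Elk1* of -1.06 (adjusted p = 0.000194), *Mrtfb* of -1.05 (adjusted p = 7.77e-05) and *Elk4* of -0.58. *Elk3*, which encodes a factor of the same kind, was higher by 0.47 (adjusted p = 0.0243).

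Of 4 genes for the turnover of Jun and Fos proteins, 2 were higher in LATS1/2-KO, where 28.7% of all genes were. They were the ubiquitin ligase adaptor gene *Det1* (log2 fold change 0.64, adjusted p = 0.0142) and the ubiquitin ligase gene *Itch* (0.61, adjusted p = 0.00242). *Fbxw7* and *Cop1*, which also take part in the degradation of Jun, stood at -0.07 and 0.04.

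Most genes known from textbooks as AP-1 targets were higher, and some were lower. Of 25 listed genes, 17 were higher and 5 lower in LATS1/2-KO, where 28.7% of all genes were higher and 27.1% lower, and the median log2 fold change was 2.68. In LATS1/2-Sox9-KO, 18 were higher and 4 lower, where 29.3% of all genes were higher and 28.7% lower, with a median of 2.98. The 3 with the largest fitted changes were the collagenase gene *Mmp13*, the growth factor gene *Ereg* and the stromelysin gene *Mmp10*. *Mmp13* had a mean of 15.5 normalized counts in controls and 2558 in the LATS1/2-KO-labelled libraries (log2 fold change 7.37, adjusted p = 3.88e-06). *Ereg* had a mean of 6.47 and 826, and *Mmp10* of 2.82 and 260, with control means too near 0 for a precise fold. *Mmp10* stood at 545, 123 and 114 in the LATS1/2-KO-labelled libraries, so its mean leaned on replicate 1. The 5 that fell, named after their values were seen, were all genes of secreted factors: *Areg* (-3.25), *Vegfa* (-2.63), *Il6* (-2.43), *Lif* (-2.10) and *Tgfb1* (-1.66). Of all genes, 3.13% were higher and 3.33% lower between LATS1/2-Sox9-KO and LATS1/2-KO. There, 3 targets were higher and 0 lower by edgeR (2 lower by unadjusted p under 0.05, and 1 by DESeq2): *Il1a* by 3.48 (adjusted p = 0.00832), *Hmox1* by 1.35 (adjusted p = 0.00135) and *Plaur* by 0.66 (adjusted p = 0.00849). Many of these genes are also known targets of YAP and TAZ.

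All 6 genes for YAP, TAZ and the TEAD factors passed in LATS1/2-KO, with 3 higher and 3 lower. Of all tested genes, 28.7% were higher and 27.1% lower there. *Tead4* and *Tead1* rose by 2.29 (adjusted p = 5.52e-06) and 1.77 (adjusted p = 4.07e-05), and *Wwtr1*, which encodes TAZ, by 0.43 (adjusted p = 0.0211). *Tead2* fell by 2.35 (adjusted p = 2.83e-05), *Tead3* by 1.40 and *Yap1* by 0.65 (adjusted p = 0.00339). Between LATS1/2-Sox9-KO and LATS1/2-KO, *Tead2* had a log2 difference of -1.29 (adjusted p = 0.0142) and *Wwtr1* of -0.65 (adjusted p = 0.0251).

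**Figure D4:**
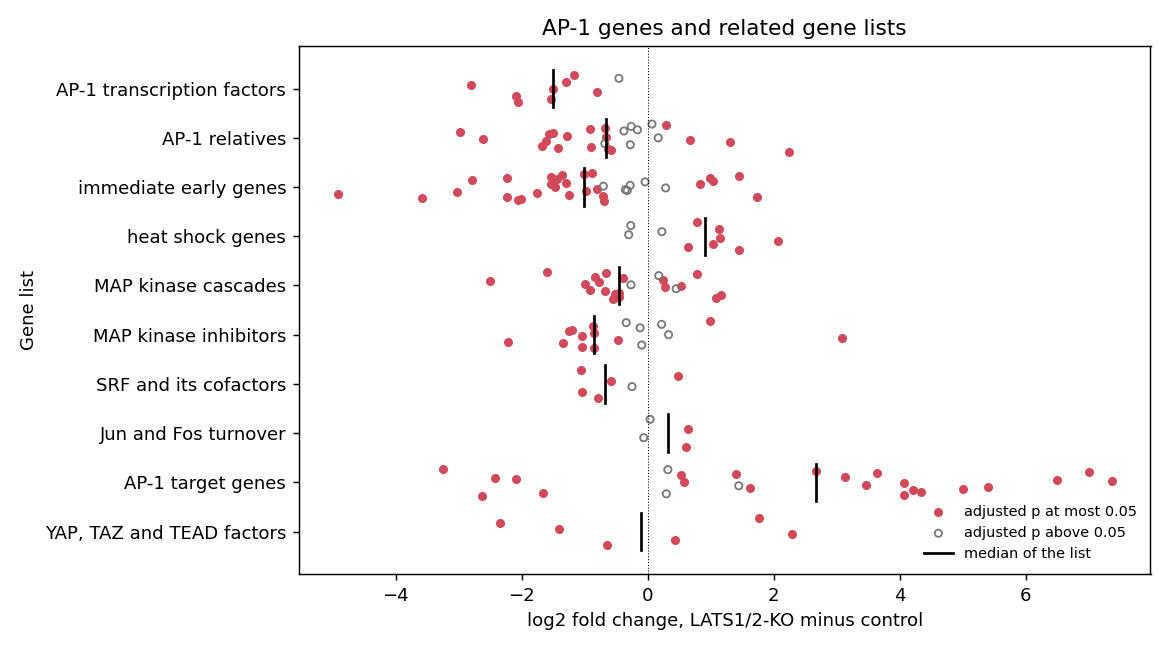
log2 fold change of LATS1/2-KO over control (x axis) of every tested gene of the AP-1 set and of 9 related lists, filled where the adjusted p was at most 0.05, with the median of each list as a black line. The AP-1 genes lie between -2.81 and -0.46, whereas the heat shock genes have a median of 0.91 and the AP-1 target genes one of 2.68.

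For each member, the genes with the most similar pattern over the 9 libraries were found by the root mean square difference of log2 normalized counts after centring, among 11814 or 11815 genes with a mean of at least 100. The nearest genes to *Fos* were *Mxra7* (0.19), *Btg2* (0.19) and *Ier2* (0.20), and those to *Fosb* were *Sbno2* (0.19), *Rgl3* (0.20) and *Trp53inp2* (0.21). *Csrnp1*, *Erbb2* and *Smarca4* were nearest to *Fosl1* (0.09 to 0.10), *Irs2*, *Siah2* and *Gramd1a* to *Fosl2* (0.12 each), and *Prkce*, *Gpsm3* and *Btbd2* to *Jun* (0.14 to 0.17). *Pigv*, *Sdf2l1* and *Creld1* were nearest to *Junb* (0.10 to 0.12), *Tsc2*, *Unk* and *Mbd6* to *Jund* (0.08 to 0.09), and *Slc23a2*, *Yod1* and *Ppp1r37* to *Atf3* (0.13 to 0.16). For *Batf3*, whose few counts make its pattern imprecise, they were *Ndufaf3*, *Prr15l* and *Serinc3* (0.21 each). No member was among the 3 nearest genes of another.

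The exons of the members are rich in G and C, and fold changes in these libraries moved with that property. Their GC content ran from 51.9% in *Fos* to 67.1% in *Jund*, and of 5 equal bins of the tested genes by GC content, *Fos*, *Fosl2* and *Atf3* were in bin 4 and the other 6 members in bin 5. From the lowest to the highest bin, the median log2 fold change of all tested genes in LATS1/2-KO was 0.40, 0.26, 0.05, -0.21 and -0.44. In LATS1/2-Sox9-KO it was 0.33, 0.20, 0.03, -0.19 and -0.40. With an offset that removes this trend from each library, the log2 fold change in LATS1/2-KO was -2.37 for *Fosb*, -1.69 for *Jun*, -1.76 for *Jund*, -1.11 for *Fos*, -1.02 for *Junb*, -0.998 for *Fosl1* and -0.97 for *Atf3*. These 7 genes still passed (adjusted p at most 0.00406), whereas *Fosl2* did not (-0.55, adjusted p = 0.0623) and *Batf3* turned to 0.10 (adjusted p = 0.865). In LATS1/2-Sox9-KO the same 8 genes passed with the offset as without it, but *Fosl1* and *Junb* shrank to -0.60 and -0.72. Whether the GC trend arose in the cells or in the libraries was not tested.

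**Figure D5:**
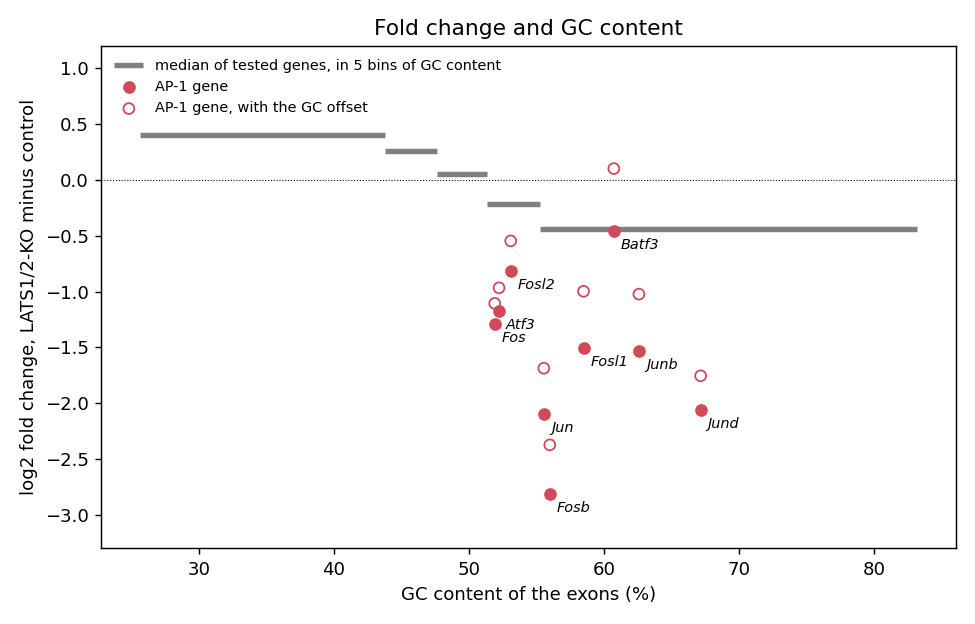
log2 fold change of LATS1/2-KO over control (y axis) against the GC content of the exons in percent (x axis). Grey lines give the median of all tested genes in each of 5 bins of GC content, from 0.40 to -0.44, filled points the AP-1 genes and open points the same genes with the GC offset, all of them closer to 0, with *Batf3* at 0.10 in place of -0.46.

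Transcripts of immediate early genes often carry AUUUA elements in the 3′ untranslated region, which the protein of *Zfp36* binds to speed their decay. In the DNA letters of the longest coding transcript, ATTTA was found 8 times in *Fosl2*, 4 times in *Fos*, 4 times in *Jun*, 3 times in *Atf3*, 2 times in *Junb*, once in *Fosb*, *Fosl1* and *Jund*, and not in *Batf3*. The median over 19648 coding genes was 1. Per kilobase, *Fos* had 4.91, *Junb* 4.12, *Jun* 3.24 and *Fosb* 0.466, against a median of 1.31. *Zfp36* itself was lower in LATS1/2-KO (log2 fold change -2.06, adjusted p = 4.72e-05), and the part of transcript decay in these differences was not tested.

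Exons of 4 members overlap a gene on the opposite strand. The counting is described as same-strand, but the library kit does not mark strand, so reads from the shared bases cannot be told apart and these counts are uncertain. *Fosl1* shares 1163 bases (57.2% of its exonic length) with *Ccdc85b*, *Jund* shares 877 bases (52.6%) with *Gm11175*, *Junb* 173 bases with *Prdx2* and *Jun* 232 bases with *Junos*. In LATS1/2-KO, *Gm11175* and *Junos* had log2 fold changes of -1.83 (adjusted p = 0.000444) and -1.37 (adjusted p = 0.0001). *Ccdc85b* and *Prdx2* were at -0.13 (adjusted p = 0.472) and -0.07 (adjusted p = 0.676).

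Markers of the sorted cells were examined beside these results. The 7 luminal epithelial markers, led by *Krt18*, summed to 963577, 935587 and 1053870 normalized counts in controls, to between 1025800 and 1058780 in the LATS1/2-KO-labelled libraries and to between 1453240 and 1738830 in the LATS1/2-Sox9-KO-labelled ones. Of these 7, 2 were higher and 3 lower in LATS1/2-KO, where 28.7% of all genes were higher and 27.1% lower. *Krt8*, whose promoter drives the Cre, rose by 0.58 and *Krt18* by 0.71, while *Krt19*, *Epcam* and *Cdh1* had log2 fold changes of -1.03, -0.74 and -0.43. The 6 myoepithelial markers, led by *Acta2*, summed to a mean of 2771 in controls, 13248 in LATS1/2-KO and 6536 in LATS1/2-Sox9-KO, with 2 genes higher and 2 lower in LATS1/2-KO.

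The marker lists of non-epithelial cells summed to at most 21852 normalized counts in any library, reached by the pericyte markers in control replicate 1 and made up mostly of *Notch3*. Counts of higher and lower markers below are for LATS1/2-KO against control, where 28.7% of all genes were higher and 27.1% lower. The 5 leukocyte markers, led by *Ptprc*, summed to at most 477 in any library, and 0 passed in LATS1/2-KO by edgeR (0 also by unadjusted p under 0.05, and by DESeq2). Of the T and B cell markers, *Cd3e* and *Ms4a1* were at 0 in all 9 libraries, and *Cd79a* was the most abundant with a mean of 37.5. The 8 dendritic cell markers, among which *Clec9a* was at 0 in every library, summed to means of 1609, 1021 and 346 in the 3 groups. *Zbtb46* was the most abundant over all 9 libraries, with means of 318, 514 and 210, but *Irf8* led in controls, with means of 666, 25.6 and 21.8, and was the 1 of 5 tested that was lower in LATS1/2-KO. Macrophage markers summed to 831, 3409 and 4225, with 3 of 6 higher, and most of the rise was that of *Csf1r*, with means of 158, 2310 and 3238, whereas *Cd68* led in controls at 403. Fibroblast markers summed to 5220, 3327 and 2960. By library the sums were 2349, 4194 and 9118 in controls and 6088, 1358 and 2535 in LATS1/2-KO, which overlap. Of the 6 fibroblast markers, 3 were higher and 1 lower. The lower one was *Dcn*, the most abundant over all libraries, with means of 4360, 923 and 158, while *Col1a1* was among the higher ones, with means of 311, 1166 and 1614. Endothelial markers, led by *Pecam1* over all libraries, summed to 493, 654 and 578, and 1 of 5, *Kdr*, was higher. Adipocyte markers, led by *Fabp4*, summed to 248, 1672 and 735, with 3 of 4 higher. Their sums in the LATS1/2-KO-labelled libraries were uneven, at 484, 3103 and 1430. Pericyte markers summed to 19654, 3090 and 3568, with 2 of the 3 tested lower, and *Notch3*, which luminal cells are also known to express, alone had means of 19486, 3006 and 3507. Of the other 3, *Rgs5* had means of 144, 29.5 and 22.9, *Kcnj8* of 0.378, 9.27 and 3.64, and *Pdgfrb* had a mean of 23.8 in controls and did not pass (0.94, adjusted p = 0.172). The part of these cells in the differences between groups was not tested.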

How the data were processed

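Bulk RNA was sequenced from EYFP+ cells of 9 libraries. Per the labels and the methods, libraries were made with the TruSeq RNA kit v2, which does not mark strand, and the authors aligned reads to mm10 with STAR 2.6.0c and counted properly paired, uniquely mapped reads over Ensembl genes with featureCounts (Subread 1.6.2), described as same-strand, leaving out mitochondrial genes. The authors deposited these raw counts without normalization or pooling.

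Groups and replicate numbers came from the labels. The sources used here number the libraries of a condition without saying whether each came from its own mouse, so p-values measure the spread between these libraries. Counts of every 2 libraries of a group differed by more than sampling noise (chi-square per gene of at least 16.4). In R 4.3.3, edgeR 4.0.16 (filterByExpr, TMM, quasi-likelihood test, Benjamini-Hochberg adjustment over 19357 genes) was fitted to all 9 libraries with 3 group means. Normalized counts are counts divided by the effective library size and multiplied by the mean effective size. DESeq2 1.42.0 was an alternative, and the test was run on simulated counts. Shares were tested by exact permutation in scipy. Symbols came from GENCODE M21, and for 55190 of 55450 gene IDs there was a match. Protein sequences were not used here.

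The members and gene lists were chosen with earlier results of these data known. Named genes of a list longer than 10 were the 3 with the largest change in LATS1/2-KO against control and in LATS1/2-Sox9-KO against LATS1/2-KO, among those that passed, did not overlap and had a mean of at least 100 in the higher group. Other names are said to be chosen after their values were seen, except *Zfp36*, which is named beside its role in transcript decay. Some genes are not reported here. They were taken out of their lists before counting. Of the genes that the rule picked among the MAP kinase cascades, not all are named. From each cell type list, the most abundant gene over all libraries and those at 0 were named, with others where they led in a group or moved the sum, and from the luminal list all that passed in LATS1/2-KO.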

Additional observations from a re-analysis of the deposited data

How the results depend on the processing

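Each member was refitted under 17 alternatives per comparison. *Fosb*, *Fosl1*, *Jun*, *Junb* and *Jund* stayed lower than control in LATS1/2-KO, with an adjusted p of at most 0.0251 in every one. Against a fold change of 2 (glmTreat, which asks for more than a difference from 0 by construction), the unchanged log2 fold changes of *Fos* (-1.29), *Fosl2* (-0.81), *Atf3* (-1.17) and *Sox9* (-1.15) no longer passed in LATS1/2-KO, nor did those of *Fos* (-1.42), *Fosl1* (-1.12), *Fosl2* (-0.93), *Junb* (-1.30), *Atf3* (-1.20) and *Lats2* (0.61) in LATS1/2-Sox9-KO, where 3 members were called. By that test 4005, 4708 and 32 genes were called in the 3 comparisons, in place of 6705, 7248 and 719.

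With the GC offset, *Fosl2* no longer passed in LATS1/2-KO (-0.55, but it passed at -0.54 together with the replicate block). *Batf3* changed sign there (0.10, and 0.11 together with the replicate block), and 4 members were called in LATS1/2-Sox9-KO. *Jund* passed between the knockout groups with the GC offset (0.46), but not together with the replicate block, since it passed in 1 of 17 alternatives. *Lats2* passed in LATS1/2-KO with the GC offset (0.70), with the replicate block and GC offset (0.71), with upper-quartile factors (0.54) and with those 2 groups alone (0.52). Without a filter on low counts, *Jun* (0.0197) and *Atf3* (0.00565) changed sign between the knockout groups. DESeq2 called 1259 genes there, with 0 members. The cause of these changes was not tested.

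Leaving out 1 library at a time, *Fosl2* in LATS1/2-KO ranged from -0.99 to -0.66, *Lats2* from 0.38 to 0.61 in LATS1/2-KO and from 0.46 to 0.78 in LATS1/2-Sox9-KO. Between the knockout groups, where none of the members passed without any 1 library, *Fos* ranged from -0.38 to 0.0603, *Fosb* from -0.10 to 0.42, *Fosl2* from -0.36 to 0.0403, *Jun* from -0.34 to 0.17, *Atf3* from -0.28 to 0.13 and *Lats2* from -0.0356 to 0.29, and the number of genes called went from 201 (without LATS1/2-Sox9-KO replicate 2) to 1079 (without LATS1/2-KO replicate 1). It was 278, 446 and 475 without LATS1/2-KO replicate 3, LATS1/2-Sox9-KO replicate 1 and LATS1/2-Sox9-KO replicate 3.

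Replicate numbers shared by the groups are taken here as names. Deviations of same-numbered libraries correlated from -0.0657 to 0.17, and those of libraries with different numbers from -0.164 to 0.0641. Between the knockout groups the same-numbered correlations were 0.105, 0.17 and -0.0322 for replicates 1, 2 and 3. Those of replicates 1 and 2 were above every pair with different numbers. With the replicate block, 7 members were called in each comparison with control (*Fosb* -2.84 and *Jun* -2.14 in LATS1/2-KO), and 6521, 7087 and 601 genes in all. The difference in the family share of *Fosl1* between LATS1/2-KO and control, 0.175 percentage points, ranged from -0.0670 to 0.503 as 1 library was left out, and was below 0 also without control replicate 3 (-0.0633). Without division by length, the share of *Fosb* differed by -26.1 and that of *Fosl2* by 3.83 points. With 3 libraries a group, a permutation test of a share cannot pass 0.05, and the 19 to 48 counts of *Batf3* limit its precision.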
